A study of Homo sapiens with 4 samples.

Results

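Immediate early genes and the proto-oncogene MYC were followed across KIAA1429 knockdown in HCCLM3, an established human hepatoma cell line. The set holds 10 genes, chosen by symbol: FOS, FOSL1, JUN, JUNB, JUND, ATF3, EGR1, IER2, IER3 and MYC. All 10 were among the 13036 genes listed, with 25 of the 38510 listed transcripts, and all 10 passed the filter on low values, which left 11657 genes. The shCtrl cells carried a control hairpin (2 samples) and the shKIAA1429 cells carried a hairpin against KIAA1429 (2 samples), the largest protein of the complex that writes N6-methyladenosine (m6A) into mRNA. By the study's methods, the hairpins were delivered by lentivirus and the KIAA1429 hairpin used a single target sequence, so an effect of that sequence and an effect of losing KIAA1429 cannot be told apart. The RNA-seq was run to find genes downstream of KIAA1429. Levels are FPKM, fragments per kilobase of transcript scaled to the mapped fragments of the library, summed over the listed transcripts of a gene. Being per length, they allow a rough comparison between genes. For a gene with several listed transcripts of unlike length, such as FOS, the sum depends on how fragments were divided among them.

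Immediate early genes are switched on within minutes of a growth factor, serum or stress signal, by transcription factors that are already present in the cell, and their mRNAs are destroyed quickly by sequences in their 3′ UTRs. FOS and JUN family proteins pair to form AP-1, a transcription factor that drives proliferation and invasion genes, and EGR1 and ATF3 are transcription factors induced by mitogens and by stress. MYC is a short-lived transcription factor for growth and ribosome genes, and m6A sites have been described on the mRNAs of several of these genes, which is the background to examining them after loss of an m6A writer.

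KIAA1429, listed under its current symbol VIRMA, was at 9.37 and 14.1 FPKM in the control libraries and lower in both knockdown libraries, at 6.90 and 8.52 FPKM. Its log2 fold change was -0.53 (SE 0.24, limma adjusted p = 0.917), and no gene of the 11657 passed the thresholds of the study (an adjusted p under 0.05 with a log2 fold change beyond 1 in either direction). The smallest adjusted p of any gene by limma was 0.238. The study itself reported differentially expressed genes from this RNA-seq, by a count test that could not be run on FPKM. With 2 libraries a group, an exact two-sided permutation test of 1 gene cannot go below p = 0.333. Of 13 hepatocyte and hepatoma markers only SERPINA1 was listed, at 3.34 to 5.63 FPKM, and ALB and AFP were not listed. Of 5 epithelial markers the keratins KRT8, KRT18 and KRT19 were at 350 to 1176 FPKM, and EPCAM and CDH1 were not listed. Of 7 fibroblast and mesenchymal markers 6 were listed. Among them VIM was at 962 to 1227 FPKM, COL3A1 at 55.8 to 63.6 FPKM and COL1A1 at 3.54 to 6.76 FPKM. Some of these markers differed by hairpin without passing over all genes: VIM was at 962 and 1033 FPKM in the control and 1227 and 1196 in the knockdown libraries, KRT19 at 364 and 350 against 461 and 458, and LUM at 7.92 and 7.04 against 2.73 and 2.88 (limma adjusted p = 0.806, 0.709 and 0.342). Their part in the values below was not tested. Of 6 leukocyte markers CD68 and CD14 were listed, and none of 4 endothelial markers was. The libraries did not separate by hairpin alone: those sharing a replicate number deviated together from their group means (r = 0.32 across genes, which are not independent replicates), and FOS was among the genes in which this was largest. Nothing in the labels says that a number marks a shared day or batch.

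Sequences for which the immediate early class is known are shown first, as background to the levels. FOS and EGR1 have well-studied promoters that read serum and cyclic AMP signals, and their windows are printed. Both genes were higher in replicate 2 in both groups (below), as were JUNB and IER2. A part of the promoters in those levels was not tested. RefSeq promoter windows (GRCh38.p14, 250 bases before to 50 bases after the start) were found for 7 of the genes, namely FOS, JUN, JUNB, JUND, ATF3, EGR1 and IER2. The capitals mark the CArG box, which is bound by serum response factor, and TGACG, the core of the cyclic AMP response element TGACGTCA, read on either strand (as CGTCA on the other one).
FOS, chr14:75278578-75278877, plus strand: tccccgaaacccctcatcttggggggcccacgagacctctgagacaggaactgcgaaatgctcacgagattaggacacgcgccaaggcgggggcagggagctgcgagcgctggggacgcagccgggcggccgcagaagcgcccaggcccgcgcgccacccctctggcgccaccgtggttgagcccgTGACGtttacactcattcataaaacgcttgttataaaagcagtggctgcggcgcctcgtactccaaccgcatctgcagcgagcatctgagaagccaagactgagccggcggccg
EGR1, chr5:138465229-138465528, plus strand: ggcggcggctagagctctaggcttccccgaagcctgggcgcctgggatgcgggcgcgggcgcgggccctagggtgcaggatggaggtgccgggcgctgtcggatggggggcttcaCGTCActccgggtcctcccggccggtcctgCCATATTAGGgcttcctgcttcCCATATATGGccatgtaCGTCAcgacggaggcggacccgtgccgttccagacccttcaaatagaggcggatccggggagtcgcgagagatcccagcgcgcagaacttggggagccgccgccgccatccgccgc

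The EGR1 window held 2 CArG boxes, a motif found at least once in 1.29% and at least 2 times in 0.0313% of the 35116 promoter windows of the same length. EGR1 was the only gene of the 7 with a CArG box in its window. TGACG occurred in 24.6% of all windows, 2 times in EGR1, once each in FOS, JUN, JUNB and IER2 and 3 times in JUND. The FOS window held no CArG box in these letters and 1 TATAAA, which occurred in 11.5% of windows. Sequence more than 250 bases before the start was not searched in any gene, so a CArG box lying there would not be seen. These matches are descriptions of the letters, and no binding was measured here.

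The 3′ UTR carries the other known feature of the class, the AU-rich elements built from ATTTA. In the GENCODE annotation 9 of the 10 genes had at least 1 ATTTA in the 3′ UTR of their canonical transcript, against 72.6% of 10776 genes tested with such a transcript, and 5 of 10 had at least 3, against 46.1%, so the set as a whole was near the background. IER3 had 6 in 737 bases (8.14 per kilobase) and FOS had 5 in 806 bases (6.20 per kilobase), at the 98.1 and 95.3 percentiles of all genes, whereas IER2 had none. The windows of 30 bases around these sites (GRCh37) are given for the genes whose levels are described most fully, with ATTTA in capitals.
FOS, chr14:75748759-75748788, plus strand: attgtgtttttaATTTATTTAttaagatgg
IER3, chr6:30711429-30711458, minus strand: ctcctaattaatATTTAtatgtATTTAtgt
FOSL1, chr11:65659743-65659772, minus strand: gagggcagctgctATTTAttttcctaaaga
ATF3, chr1:212793106-212793135, plus strand: cctcaactccaggATTTAggccttaacaca
FOS and IER3 each had 2 copies within the 30 bases, and in FOS they overlapped.

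The genes were also compact. All 10 had at most 4 exons (20.04% of all genes), 6 had at most 2 (6.67%), and JUN, JUNB and JUND had 1 (2.24%), against a median of 9 exons. GGAC, the core letters at which m6A is often placed, stood at 8.89 per kilobase of mRNA in IER3 and 8.74 in JUNB, at the 96.8 and 96.5 percentiles, and at 3.33 in FOS and 2.58 in ATF3, at the 43.6 and 26.8 percentiles. In all, 7 of the 10 genes were above the median of 3.68 per kilobase, with FOS, EGR1 (3.19, 40.7 percentile) and ATF3 below it and FOSL1, JUND and MYC only just above, at the 56.1 to 57.8 percentiles. Methylation itself was not analysed here.

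The levels spanned 2 orders of magnitude and were led by FOSL1. In order of the mean over the 4 libraries, FOSL1 was at 192 FPKM, IER3 at 99.2, JUN at 83.3, JUND at 43.2, JUNB at 27.7, FOS at 24.3, MYC at 22.3, IER2 at 18.1, EGR1 at 9.52 and ATF3 at 1.93. Neighbours whose ranges over the 4 libraries did not overlap were FOSL1 and IER3, JUN and JUND, JUND and JUNB, and EGR1 and ATF3. The ranges of IER3 and JUN overlapped, as did those of each neighbouring pair from JUNB through FOS, MYC and IER2 to EGR1, so that part of the order is not resolved.

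**Figure D1:**
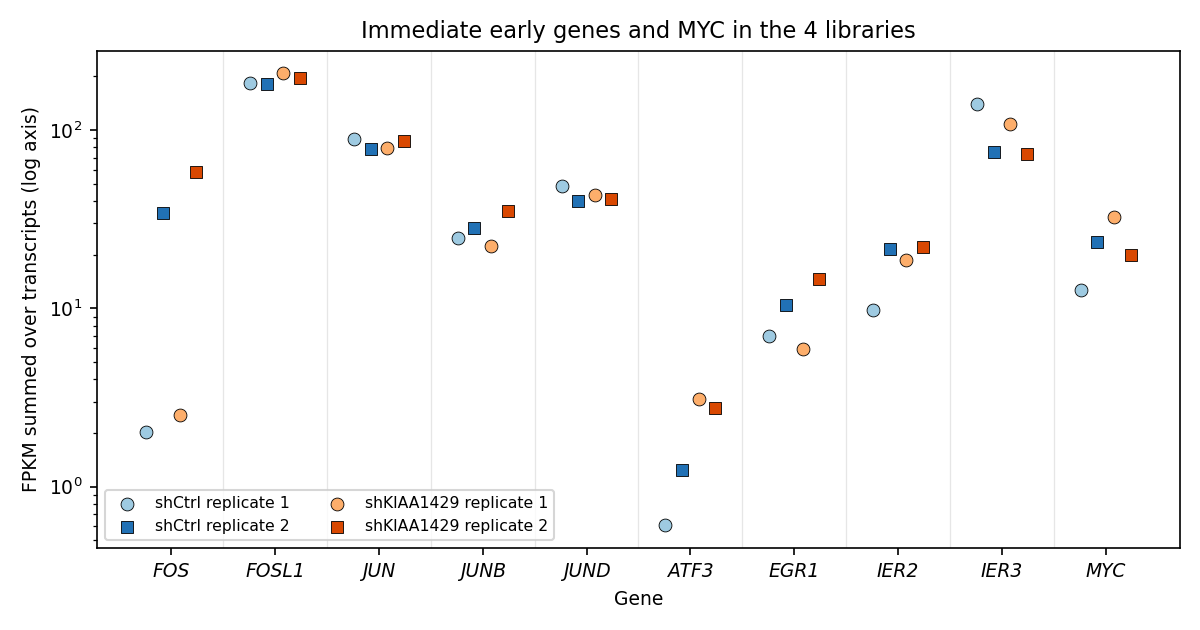
FPKM of each gene, summed over its listed transcripts, in the 4 libraries (y axis logarithmic; blue, shCtrl; orange, shKIAA1429; circles, replicate 1; squares, replicate 2). FOS is near 2 FPKM in both replicate 1 libraries and at 34.2 and 58.6 FPKM in the replicate 2 libraries, whereas both shKIAA1429 points lie above both shCtrl points only for FOSL1 and ATF3.

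FOS, the inducible partner in AP-1, had the widest spread of the set and was split by replicate number, not by hairpin. FOS (ENSG00000170345, chr14:75745477-75748933, plus strand, hg19) was at 2.01 and 34.2 FPKM in the control libraries 1 and 2, and at 2.52 and 58.6 FPKM in the knockdown libraries 1 and 2. Both replicate 2 libraries were high and both replicate 1 libraries were low, so the hairpin groups overlapped over most of their ranges. Replicate 2 was 16.97-fold above replicate 1 in shCtrl and 23.2-fold in shKIAA1429. On the log2(FPKM + 1) scale these gaps were 3.54 and 4.08, which ranked 1 and 2 among the rises of all 11657 genes in the respective group, and the mean of both gaps ranked 1. A rise of over 1 on that scale in both groups was seen in 32 genes (0.275%). The log2 fold change between the hairpin groups was 0.49 (SE 1.74, limma adjusted p = 0.999) and ran from -1.55 to 2.53 as each library was left out in turn, being negative without shCtrl replicate 1 (-1.28) or without shKIAA1429 replicate 2 (-1.55). Within replicate numbers, shKIAA1429 was 1.25-fold shCtrl in replicate 1 and 1.71-fold in replicate 2.

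**Figure D2:**
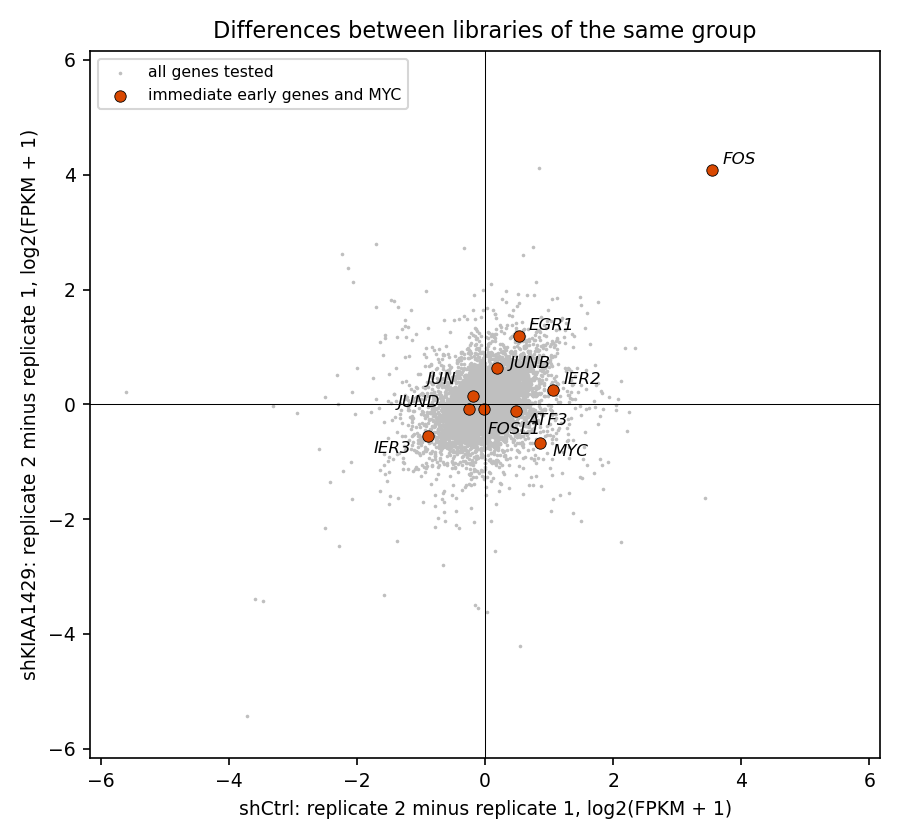
Difference between replicate 2 and replicate 1 on the log2(FPKM + 1) scale, in shCtrl (x axis) and in shKIAA1429 (y axis), for the 11657 genes tested (grey) and the 10 genes (orange). FOS stands at 3.54 and 4.08, far from the grey cloud, and EGR1 at 0.52 and 1.19, whereas FOSL1, JUN and JUND lie near the origin.

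The FOS signal was divided among 7 listed transcripts. FOS-209, a short processed transcript from the 5′ part of the gene, was at 0.609, 11.1, 0.702 and 21.6 FPKM in the order shCtrl 1, shCtrl 2, shKIAA1429 1 and shKIAA1429 2. The full-length canonical FOS-201 was at 0.193, 1.85, 0.427 and 2.81 FPKM in the same order. Each of the 7 transcripts was higher in both replicate 2 libraries than in either replicate 1 library, and FOS-207 was listed at 0 in both replicate 1 libraries and at 6.30 and 8.54 FPKM in the others. Every listed transcript reached at least 0.504 FPKM in some library. FOS-201, FOS-205, FOS-206, FOS-207 and FOS-208 did so in the replicate 2 libraries alone, so their direction was fixed by their being listed. Only FOS-204 and FOS-209 were above that value in all 4 libraries. Of the 7, 6 hold bases that are intronic in FOS-201, and these 6 took 90.4%, 94.6%, 83.1% and 95.2% of the FOS signal in the same library order. The FPKM of overlapping transcripts rests on how the authors' tool divided shared fragments, so these shares are estimates, and reads from unspliced FOS RNA and from the annotated short transcripts cannot be told apart.

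**Figure D3:**
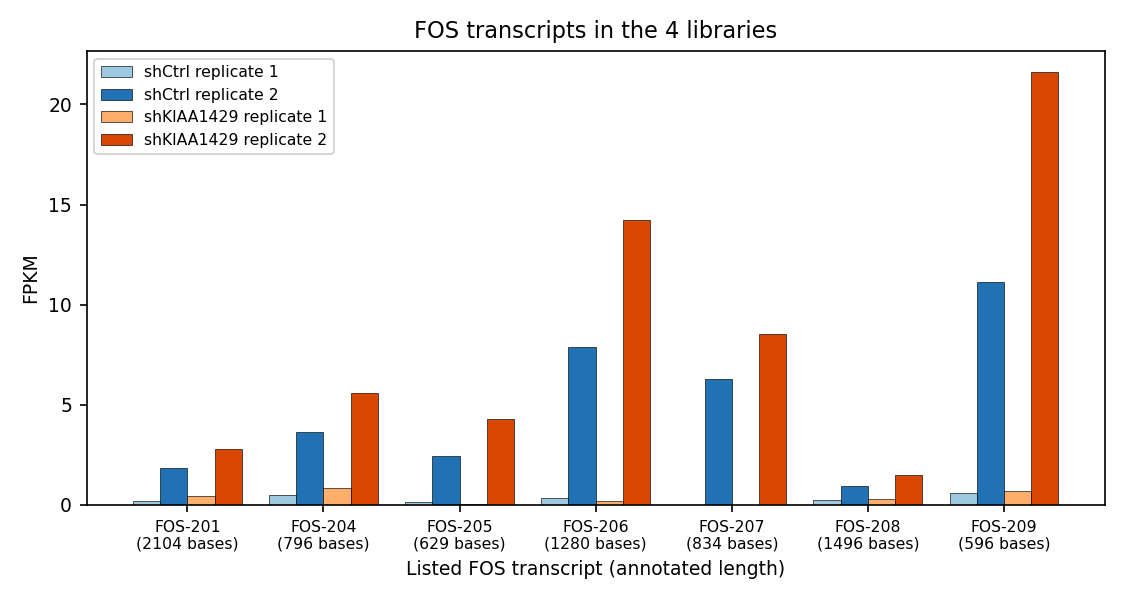
FPKM (y axis, from 0) of the 7 listed FOS transcripts with their annotated lengths (x axis) in the 4 libraries. For each transcript the darker bars of replicate 2 exceed the lighter bars of replicate 1 in both hairpin groups, with FOS-209 and FOS-206 the highest.

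FOSL1, the FOS relative that is kept high in many RAS-driven tumour cells, was the steadiest gene of the set and the main FOS family mRNA of these cells. FOSL1 (ENSG00000175592, chr11:65659520-65667997, minus strand) was at 184, 181, 208 and 196 FPKM in shCtrl 1, shCtrl 2, shKIAA1429 1 and shKIAA1429 2. Both knockdown libraries were above both controls, by a log2 fold change of 0.15 (SE 0.11, limma adjusted p = 0.969) that stayed between 0.10 and 0.19 as each library was left out. Its canonical transcript FOSL1-201 carried 76.7% to 77.8% of the signal in every library. The SD within groups was 0.045 on the log2 scale for FOSL1 and 2.70 for FOS, at the 6.29 and 99.98 percentiles of all genes tested.

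The makeup of the FOS family followed from these values. FOSL1 gave 72.1%, 65.7%, 76.2% and 62.1% of the summed FPKM of FOS, FOSB, FOSL1 and FOSL2, and FOS itself gave 0.791%, 12.4%, 0.924% and 18.6%. FOSL1 was thus the leading member in all 4 libraries, and the share of FOS was over 10% in the replicate 2 libraries alone. FOSL2 was at 56.8 to 68.3 FPKM. FOSB, another inducible member, was at 0.724, 3.42, 0.631 and 2.82 FPKM, higher in both replicate 2 libraries. It passed the filter on low values only through those libraries, so its direction adds nothing to that of FOS. FOSB and FOSL2 were looked up after the values of FOS were seen.

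The JUN family, whose proteins pair with FOS proteins, was nearly level. JUN (ENSG00000177606, chr1:59246460-59249999, minus strand) was at 89.2, 78.1, 78.9 and 87.1 FPKM, with a log2 fold change of -0.01 (SE 0.14, limma adjusted p = 0.999). JUND (ENSG00000130522, chr19:18390570-18392432, minus strand), the least inducible of the family, was at 48.3, 40.2, 43.4 and 41.0 FPKM, with a log2 fold change of -0.06 (SE 0.15). JUNB (ENSG00000171223, chr19:12902310-12904129, plus strand) was at 24.9, 28.4, 22.3 and 35.2 FPKM, with a log2 fold change of 0.07 (SE 0.25). The groups overlapped for all 3 genes, and the sign of each difference changed when 1 library was left out. JUN gave 53.2% to 54.9% of the summed family signal in every library. JUNB gave 15.3% and 15.4% in the replicate 1 libraries and 19.4% and 21.5% in the replicate 2 libraries, the same direction as FOS but far smaller.

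ATF3, a stress-induced partner of JUN, was the gene with the largest group difference, at the lowest level. ATF3 (ENSG00000162772, chr1:212782012-212794119, plus strand) was at 0.608 and 1.24 FPKM in the control libraries and 3.09 and 2.78 FPKM in the knockdown libraries. Both knockdown libraries were above both controls, and the gap between the groups exceeded the spread within them. The ratio of the group means was 3.17. The log2 fold change of FPKM + 1 was 1.05 (SE 0.22), with an unadjusted limma p of 0.00529 and an adjusted p of 0.541, so it did not pass over all genes. It ran from 0.81 to 1.29 without each library in turn, where its sign could not change because the groups did not overlap. With a pseudocount of 0.1 it was 1.64. ATF3 passed the filter on low values only with the help of the knockdown libraries, since shCtrl replicate 1 was below 1 FPKM. Of its listed transcripts, ATF3-202 was at 0.513, 1.13, 2.50 and 2.25 FPKM and ATF3-210 at 0.0956, 0.118, 0.588 and 0.530 FPKM. Every listed transcript reached at least 0.504 FPKM in some library, and ATF3-210 did so only in the knockdown libraries. Its direction was thus fixed by its being listed and adds nothing to that of ATF3-202. A level of 1 to 3 FPKM is close to the lower limit of the list, and since the depth of the libraries is unknown no counting error could be set beside it.

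EGR1, a zinc finger factor induced by the same serum signals as FOS, moved with replicate number too. EGR1 (ENSG00000120738, chr5:137801179-137805004, plus strand) was at 6.998, 10.5, 5.88 and 14.7 FPKM. The replicate 2 library was 1.499-fold above replicate 1 in shCtrl and 2.50-fold in shKIAA1429. The hairpin groups overlapped, with a log2 fold change of 0.12 (SE 0.44, limma adjusted p = 0.999) that ran from -0.48 to 0.71 as each library was left out. FOS, JUNB, EGR1 and IER2 were higher in replicate 2 in both groups (4 of 10, against 34.9% of all genes) and FOSL1, JUND and IER3 were lower (3 of 10, against 31.6%). The number of genes that moved with replicate number was therefore near the background, and the set stood out in the size of the FOS gap, not in that count.

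IER2 and IER3 are short immediate early genes of another kind, a nuclear protein tied to cell motility and a regulator of cell survival. IER2 (ENSG00000160888, chr19:13261247-13265722, plus strand) was at 9.86, 21.6, 18.6 and 22.2 FPKM, with shCtrl replicate 1 low and the other 3 libraries close together. Its log2 fold change was 0.44 (SE 0.37, limma adjusted p = 0.973) and was -0.08 without shCtrl replicate 1. IER3 (ENSG00000137331, chr6:30710976-30712331, minus strand) was at 140, 75.05, 108 and 73.4 FPKM, higher in both replicate 1 libraries, opposite to FOS. Its log2 fold change was -0.20 (SE 0.35, limma adjusted p = 0.992), and the groups overlapped.

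The transcripts of IER3 were assigned in opposite ways in the 2 replicate numbers. The spliced IER3-201 was at 0.00157, 56.6, 0.00331 and 51.6 FPKM, and IER3-202, which keeps the single 112-base intron, was at 139.96, 18.4, 108.37 and 21.8 FPKM. The intron-retaining form thus took nearly the whole IER3 signal in both replicate 1 libraries and 24.5% and 29.7% in the replicate 2 libraries. For IER2, the unspliced IER2-203 took 21.6%, 77.9%, 76.7% and 100% of the signal, with shCtrl replicate 1 apart from the rest. Of 8503 genes with several listed transcripts, the leading transcript was one in both replicate 1 libraries and another in both replicate 2 libraries in 290 (3.41%), and it differed by hairpin in the same manner in 278 (3.27%). Among the 6 genes of the set with several transcripts, IER3 was the one that switched by replicate number, none switched by hairpin, and FOSL1 and ATF3 kept 1 leading transcript throughout. Both forms of IER3 share most of their bases, so the division between them is an estimate of the authors' tool.

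**Figure D4:**
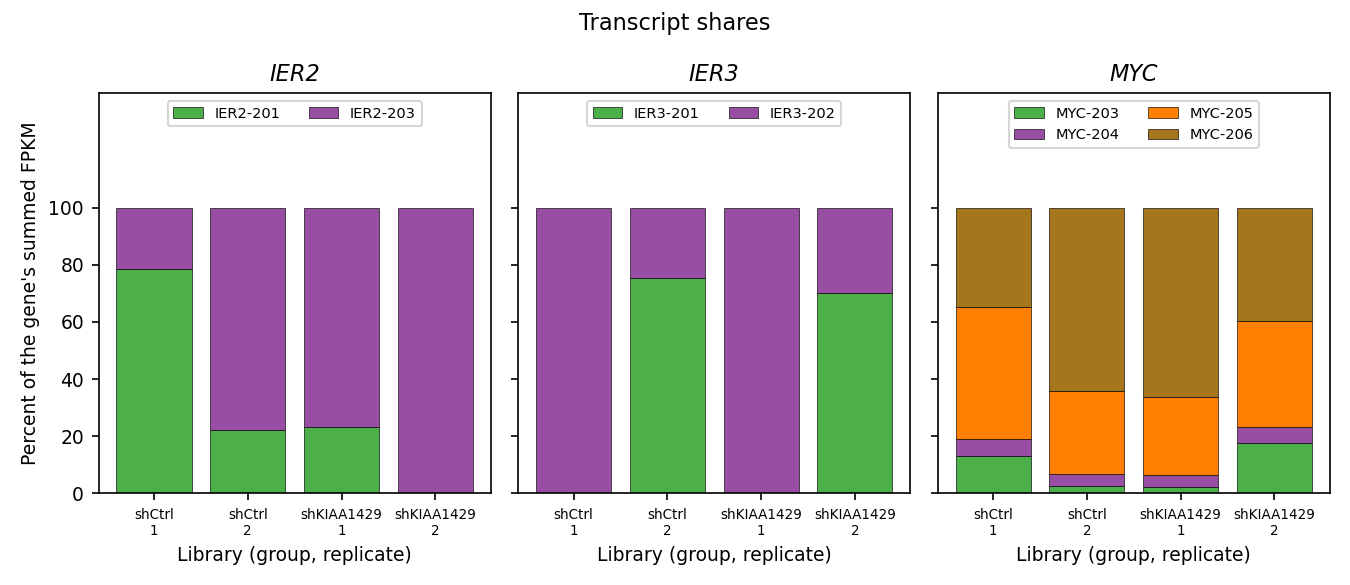
Share of each listed transcript in the summed FPKM of IER2, IER3 and MYC (y axis, percent) in the 4 libraries (x axis). IER3-202 fills both replicate 1 bars and 24.5% and 29.7% of the replicate 2 bars, whereas for IER2 shCtrl replicate 1 is the bar that differs.

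MYC did not separate the groups. MYC (ENSG00000136997, chr8:128747765-128753618, plus strand) was at 12.7 and 23.7 FPKM in the control libraries, against 32.7 and 20.03 FPKM in the knockdown libraries. The lowest value was a control and the highest a knockdown library, and the middle values crossed. The log2 fold change was 0.53 (SE 0.37, limma adjusted p = 0.960), positive without each library in turn but as small as 0.11 and as large as 0.96. Within replicate numbers the ratio of shKIAA1429 to shCtrl was 2.58 in replicate 1 and 0.845 in replicate 2, which point in opposite directions. MYC-205 and MYC-206 led its 4 listed transcripts, with MYC-206 at 4.41, 15.2, 21.7 and 7.93 FPKM and MYC-205 steadier at 5.89, 6.88, 8.94 and 7.45 FPKM.

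Counted together, 0 of the 10 genes passed both thresholds, as 0% of all genes did, and 1 of 10 (ATF3) had an unadjusted limma p under 0.05, against 5.63% of all genes (656 genes). Both knockdown libraries were above both controls in 2 of 10 (FOSL1 and ATF3), against 16.9% of all genes, and below both in 0 of 10, against 16.7%. The other 8 genes overlapped between the groups. The median log2 fold change was 0.13 over the 10 genes and -0.01 over all genes tested, and 7 of 10 were higher in shKIAA1429, against 48.1% of all genes. A single gene is 10% of the set, and at that resolution none of these shares is a result about the genes. The spread within groups was wider than usual: its median was 0.43 over the 10 genes against 0.17 over all genes, and FOS, EGR1, MYC, IER2 and IER3 (5 of 10) lay above the 90th percentile of all genes.

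**Figure D5:**
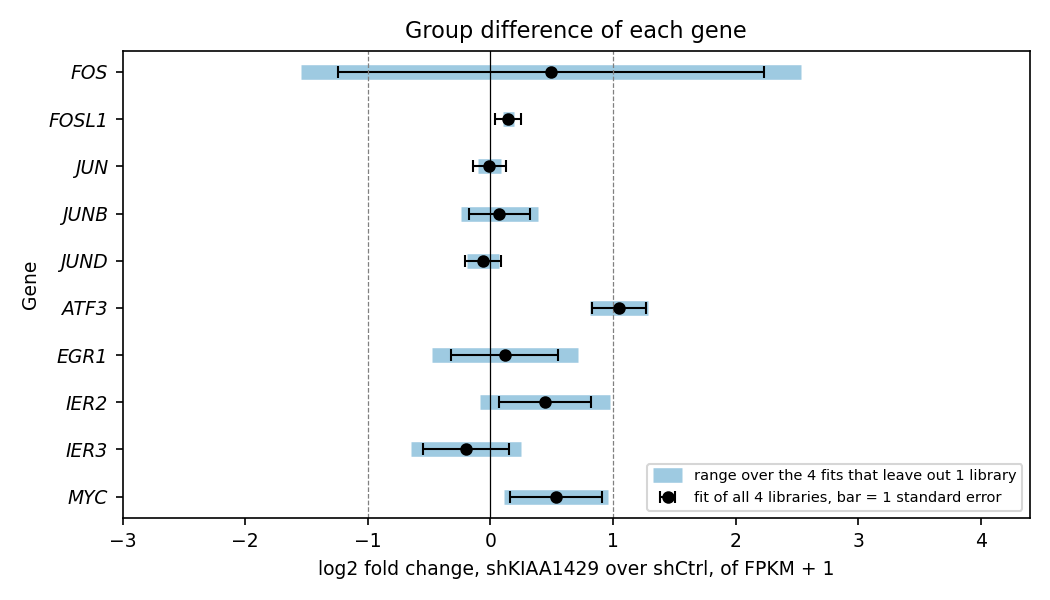
Log2 fold change of FPKM + 1 between shKIAA1429 and shCtrl (x axis) for each gene (y axis); points and bars give the limma estimate with 1 standard error, and blue bands the range over the 4 fits that leave out 1 library. The band of FOS runs from -1.55 to 2.53, and bands that stay on one side of 0 are those of FOSL1, ATF3 and MYC.

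The wider pathway was read from 8 lists, none of which had a gene past both thresholds. The counts at an unadjusted limma p under 0.05 that follow stand beside 5.63% of all genes. Among 26 other immediate early transcription factors 20 were tested, with 1 at an unadjusted limma p under 0.05 and higher (SNAI2) and none lower, and a median log2 fold change of -0.06. SNAI2, a driver of epithelial to mesenchymal change, was at 16.4, 11.8, 25.6 and 19.0 FPKM (log2 fold change 0.63, SE 0.23, limma adjusted p = 0.884). MAFF, a small MAF factor, was at 4.05, 11.8, 3.26 and 2.61 FPKM (log2 fold change -1.03, SE 0.46), with shCtrl replicate 2 apart. KLF6, a zinc finger factor, differed by 0.18 and ID3, a helix-loop-helix inhibitor, by -0.46 on the log2 scale, and both overlapped.

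Of 29 feedback inhibitors and mRNA destabilisers that are induced beside these genes, 28 were tested, 1 was higher and 2 were lower at an unadjusted limma p under 0.05 (3 of 28, against 5.63% of all genes), and the median log2 fold change was 0.03. DUSP1, a phosphatase that shuts off MAP kinases, was at 79.9 and 81.2 FPKM in shCtrl and 47.0 and 62.4 FPKM in shKIAA1429 (log2 fold change -0.56, SE 0.17, limma adjusted p = 0.805). DUSP5, which acts on ERK in the nucleus, was at 18.8 and 12.6 FPKM in shCtrl and 10.01 and 9.12 FPKM in shKIAA1429 (log2 fold change -0.64, SE 0.22, limma adjusted p = 0.877). Both were lower in both knockdown libraries. The gene that was higher, named after its values were seen, was DUSP10, a phosphatase of the stress MAP kinases, at 2.38 and 2.41 FPKM in the control libraries and 4.89 and 4.90 FPKM in the knockdown libraries (log2 fold change 0.80, SE 0.15, limma adjusted p = 0.460). DUSP1, DUSP5 and DUSP10 therefore did not share a direction, and the groups overlapped for DUSP4 (log2 fold change 0.003) and DUSP6 (0.06). ZFP36, which binds AU-rich elements and speeds decay of immediate early mRNAs, was at 8.87, 19.1, 23.3 and 21.6 FPKM, with shCtrl replicate 1 low and a log2 fold change of 0.73 (SE 0.36, limma adjusted p = 0.924). NFKBIA, the inhibitor of NF-kappaB, differed by 0.50 and overlapped.

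Of 22 secreted and surface products 18 were tested, and 3 were lower and none higher at an unadjusted limma p under 0.05 (3 of 18, against 5.63% of all genes), with a median of 0.03. EREG, an EGF receptor ligand, was at 13.8 and 8.10 FPKM in shCtrl and 4.97 and 5.41 FPKM in shKIAA1429 (log2 fold change -0.91, SE 0.27, limma adjusted p = 0.774), and the difference was -0.56 without shCtrl replicate 1. The others, named after their values were seen, were the tissue factor gene F3 at -0.70 and HBEGF at -0.66, which encodes another ligand of the EGF receptor. Both knockdown libraries were below both controls in these 3 genes alone (3 of 18, against 16.7% of all genes). They were above both controls in 0 of 18, against 16.9%. IL6, an inflammatory cytokine, was at 20.8, 8.44, 10.7 and 4.33 FPKM, with a log2 fold change of -0.86 (SE 0.55, limma adjusted p = 0.954). The groups overlapped, and the ratio of shKIAA1429 to shCtrl was 0.513 within both replicate numbers. CXCL1 (0.12) and ICAM1 (0.25) overlapped too.

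Among the partners and upstream factors, the share of genes at an unadjusted limma p under 0.05 was near the 5.63% of all genes. Of 25 AP-1 dimer partners 18 were tested, 1 was higher (BATF2, chosen after its value was seen, at 0.77) and none lower at an unadjusted limma p under 0.05, with a median of 0.05. ATF4, a stress factor, was at 234, 120, 260 and 183 FPKM, lower in both replicate 2 libraries. JDP2 (0.28), MAFG (-0.15) and BATF3 (-0.16) differed little, and of these BATF3 did not overlap. Of 29 upstream kinases and serum response cofactors 26 were tested, none was higher and 1 was lower (NRAS, at -0.36), with a median of -0.06. MAP2K3, a kinase above p38, was at 71.5, 64.3, 31.4 and 59.0 FPKM (log2 fold change -0.64, SE 0.31), with shKIAA1429 replicate 1 apart. ELK4 (0.13) and MKL1 (0.12), both partners in serum response, overlapped.

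Around MYC, 18 of 22 network genes were tested and none had an unadjusted limma p under 0.05, with a median of -0.03. AURKA (-0.34), a kinase that stabilises MYC family proteins, was lower in both knockdown libraries but at -0.10 without shCtrl replicate 2, and the dimer partners MAX (-0.32), MXD3 (0.22) and MXD4 (0.23) overlapped. Of 38 well-known MYC targets all were tested, 1 was higher (FBL, at 94.5 and 103 FPKM in shCtrl and 123 and 135 FPKM in shKIAA1429) and none lower, with a median of -0.07. FBL encodes the nucleolar methyltransferase fibrillarin, and its log2 fold change was 0.39 (SE 0.12, limma adjusted p = 0.822). SHMT2 (0.52) and MCM5 (-0.44) overlapped, and SHMT2 was at 0.02 without shKIAA1429 replicate 1. POLR1B was at 13.0, 8.57, 8.50 and 2.995 FPKM (log2 fold change -0.91, SE 0.46), where the groups were separated by 8.57 against 8.50 alone and the difference was -0.29 without shKIAA1429 replicate 2. Of 16 AU-rich element binding proteins all were tested and none had an unadjusted limma p under 0.05, with a median of -0.01. Among them ZFP36L2 (0.22), CELF1 (-0.17) and HNRNPD (-0.15) overlapped.

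Other genes moved with replicate number, in both directions, and their values are given beside FOS. In the lists nearest to FOS, 7 other immediate early transcription factors were higher in replicate 2 in both groups and 9 were lower (of 20). Of the feedback genes 9 were higher and 12 lower (of 28), and of the secreted and surface products 4 and 11 (of 18). Over all genes the shares were 34.9% higher and 31.6% lower, and no list was tested as a set. MYC targets were higher in replicate 2 in both groups in 27 of 38 and lower in 4, against 34.9% and 31.6% of all genes, and their summed level was 1892 and 1803 FPKM in the replicate 1 libraries and 2176 and 2139 in the replicate 2 libraries. In this list PCNA, a replication clamp, was at 34.9, 81.3, 25.7 and 74.4 FPKM. In the opposite direction, AP-1 partners were lower in replicate 2 in both groups in 9 of 18 and higher in 3, against the same shares. The stress genes DDIT3, at 50.6, 8.67, 38.6 and 14.5 FPKM, and PPP1R15A, at 103, 42.7, 106 and 60.0 FPKM, were also lower. DUSP6, a target of ERK signalling, was at 11.8, 17.1, 7.78 and 27.8 FPKM, in the direction of FOS. The inducible gene EGR1 (above) went that way too, as did FOSB, which passed the filter only through the replicate 2 libraries. DUSP5 (above), DUSP4 at 4.60, 3.70, 4.89 and 3.49 FPKM and SPRY4 at 16.9, 12.4, 16.8 and 15.1 FPKM, also ERK-induced, went the opposite way. These few genes are given for their values, and whether ERK-induced genes as a kind moved together was not tested. PCNA, DDIT3, PPP1R15A, DUSP4, DUSP6 and SPRY4 were chosen after their values were seen, and the part of growth or stress genes in the FOS values was not tested. In bulk RNA, a change in the number of cells with a high level and a change in the RNA per cell cannot be told apart. The mitochondrial share of the summed FPKM, 9.44%, 9.29%, 10.6% and 9.34%, was highest in shKIAA1429 replicate 1 and lay within a narrow range.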

How the data were processed

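RNA from 2 shCtrl and 2 shKIAA1429 samples of HCCLM3 cells was sequenced, and groups and replicate numbers were taken from the sample titles. The deposited files hold FPKM per annotated transcript, per the file headers; the submitters' processing notes name hg19 and Bowtie2 2.1.0, and the tool that made the FPKM is not given in the sources used here. Every listed transcript reached at least 0.504 FPKM in some library. Symbols that had turned into dates in 108 rows were restored from the other files. Depth is unknown, so no counting interval was given.

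FPKM were summed per gene identifier, genes with at least 1 FPKM in at least 2 libraries were kept, and log2(FPKM + 1) was fitted by group with the limma package (3.58.1, on R 4.3.3), using its moderated test with a trend, two-sided, and Benjamini-Hochberg adjustment over 11657 genes. The methods of the study describe a count test, which could not be used on FPKM. The fit was tested on simulated data. Transcript structure came from GENCODE 44 lifted to GRCh37, promoters from RefSeq. Nothing says that samples of a group were separate cultures, so p-values measure only the spread between these samples.

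The members and the gene lists were chosen with earlier results of these data known. Pathway genes were named where they had, within a list, the 2 largest rises or the 2 largest falls in log2(FPKM + 1) among genes with a mean of at least 5 FPKM, or passed both thresholds, and member transcripts where their mean was at least 0.5 FPKM. Exceptions are marked. Alternatives were another pseudocount, other filters and scalings, a replicate block, a robust variance, the leading transcript, other thresholds, and each library left out. After the fit, 1 gene was taken out of the list of secreted and surface products, and it is not reported here.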

Additional observations from a re-analysis of the deposited data

How the results depend on the processing

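No gene passed both thresholds in the fit of all 4 libraries by limma (656 had an unadjusted p under 0.05), and the count was 0 under every alternative that kept both thresholds, apart from 0 to 1 when a library was left out, the 1 call arising without shCtrl replicate 1. A log2 fold change over 1 with no test was met by 125 genes, 58 higher and 67 lower, ATF3 among them. With the replicate number as a block there were again 0 calls, and 1269 genes had an unadjusted p under 0.05. The pairing of same-numbered libraries rests on a correlation of 0.32 over 2 pairs and on no label. JUN turned from -0.01 to 0.0020 with upper quartile scaling. Log2 fold changes that changed sign when 1 library was left out had these ranges: FOS -1.55 to 2.53, JUN -0.10 to 0.085, JUNB -0.24 to 0.39, JUND -0.19 to 0.067, EGR1 -0.48 to 0.71, IER2 -0.084 to 0.97, IER3 -0.64 to 0.25, KLF6 -0.083 to 0.45, CXCL1 -0.25 to 0.49, ICAM1 -0.30 to 0.81, MAFG -0.31 to 0.00447, ATF4 -0.096 to 0.86, MKL1 -0.10 to 0.35, MAX -0.75 to 0.12, MXD3 -0.11 to 0.54, MXD4 -0.036 to 0.50, MCM5 -1.08 to 0.19, CELF1 -0.36 to 0.031, HNRNPD -0.47 to 0.16 and ZFP36L2 -0.031 to 0.46. ATF3 ran from 0.91 to 1.64 and IER2 from 0.40 to 1.33 over the other alternatives, IER2 being highest for its leading transcript, and ATF3 gave no value where at least 1 FPKM was required in every library. The adjusted p of ATF3 by limma lay between 0.377 and 0.745 over the alternatives that kept all 4 libraries. KIAA1429 stayed lower throughout, between -0.80 and -0.26, but its groups did not overlap, so leaving out 1 library could not change its sign. Where a group was left with 1 library, that library was assumed to vary like the other group. Pathway genes that kept their sign but moved by over 1.5 times when 1 library was left out ran as follows: MAFF -1.70 to -0.36, POLR1B -1.54 to -0.29, IL6 -1.47 to -0.26, EREG -1.26 to -0.56, MAP2K3 -1.09 to -0.20, DUSP5 -0.91 to -0.37, DUSP1 -0.76 to -0.36, ID3 -0.74 to -0.19, AURKA -0.58 to -0.10, BATF3 -0.23 to -0.097, ELK4 0.022 to 0.24, JDP2 0.082 to 0.48, NFKBIA 0.15 to 0.84, ZFP36 0.22 to 1.25, SNAI2 0.41 to 0.85 and SHMT2 0.02 to 1.02.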
